A study of Mus musculus with 2 samples.

Results

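The 10 genes described here encode interferon-induced GTPases of the mouse: 7 guanylate-binding proteins, Gbp2, Gbp2b, Gbp3, Gbp4, Gbp5, Gbp6 and Gbp7, and 3 immunity-related GTPases, Irgm1, Iigp1 and Igtp. They were chosen by name, and each symbol was found in both libraries among the 55450 genes listed. Their transcripts were followed across marker-gated cell types of liver tumours from 2 mouse models of hepatocellular carcinoma, profiled by droplet single-cell RNA sequencing from the 3′ end of transcripts. In the NRAS.MYC.ND group, C57BL/6 mice had received plasmids for human N-Ras (19 μg per mouse), human c-Myc (1 μg) and the Sleeping Beauty transposase (2 μg) by hydrodynamic tail vein injection, which drives DNA into liver cells. In the AKT1.MYC group the plasmids were Akt1 (10 μg), human c-Myc (10 μg) and the same transposase (5 μg), so c-Myc and the transposase were common to both groups while their amounts differed. Tumours were resected at 14 weeks and live cells were enriched. The age and number of mice, and any pooling of tumours, are not stated in the labels. Each group is 1 library, so no difference below has a replicate check and no test between the groups was possible.

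Guanylate-binding proteins (GBPs) and immunity-related GTPases (IRGs) are large GTPases that cells make after exposure to interferons, above all interferon gamma. They gather on membranes that enclose intracellular microbes, disrupt them and can set off inflammasome signalling. Gbp2, Gbp2b (the mouse counterpart of GBP1) and Gbp5 end in a motif that receives a lipid tail by prenylation. Among the IRGs, Irgm1 and Igtp act as regulators on the cell's own membranes, and Iigp1 is an effector that they hold inactive there. Transcription of these genes is driven through short promoter elements called GAS and ISRE, so they serve as a readout of interferon signalling in the cell that makes them.

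The NRAS.MYC.ND library held 6312 barcodes and 42416125 unique molecular identifiers (UMIs), and AKT1.MYC 10766 and 64516171, with 17 barcode sequences in common. After filtering, 5634 and 9398 cells remained, at medians of 4240 and 1987 UMIs, and all values below come from them. Cells were assigned to 11 lineages by 96 marker genes, none of them a GTPase. Mononuclear phagocytes (1284 NRAS.MYC.ND and 2593 AKT1.MYC cells), T cells (1359 and 76), neutrophils (239 and 595), endothelial cells (810 and 360) and epithelial cells (505 and 1828), which take in tumour cells, hepatocytes and cholangiocytes, passed 50 cells in each library and were compared. Cells that met no gate were 16.0% and 35.8% of those kept. The phagocyte markers summed to 22672 and 20011 CPM (counts per 1000000 UMIs of the type) in phagocytes, and the endothelial markers to 11321 and 6472 CPM in endothelial cells. The gates were set on these same markers, so the sums are no check of what the cells are. Levels below are CPM on this scale, pairs give NRAS.MYC.ND before AKT1.MYC, and a negative log2 ratio means that the NRAS.MYC.ND level was the higher one. Intervals are at 95% and cover counting error only.

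Promoters of 7 of the 10 genes were taken from the RefSeq promoter table (GRCm38.p6). It gives 250 bases before to 50 after each transcription start. The promoters of Gbp4, Gbp6 and Iigp1 were not examined, so the motif counts below do not cover these genes. The 170 bases before the start are printed here because they hold the interferon-response letters that these genes share; capitals mark an ISRE core (GAAANNGAAA, on either strand) or a GAS core (TTCNNNGAA, the same on both strands), and touching or overlapping matches form 1 capital run. They were read 5′ to 3′ in the direction of transcription at chr3:142620493-142620662 for Gbp2, chr3:142594677-142594846 for Gbp2b, chr3:142559874-142560043 for Gbp3, chr3:142496764-142496933 for Gbp5, chr3:142530166-142530335 for Gbp7 and chr11:58199386-58199555 for Igtp, all on the plus strand, and at chr11:48871421-48871590 on the minus strand for Irgm1.
Gbp2: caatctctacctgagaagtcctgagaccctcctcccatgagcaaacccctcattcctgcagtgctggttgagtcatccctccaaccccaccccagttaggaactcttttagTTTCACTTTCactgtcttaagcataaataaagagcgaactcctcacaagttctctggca
Gbp2b: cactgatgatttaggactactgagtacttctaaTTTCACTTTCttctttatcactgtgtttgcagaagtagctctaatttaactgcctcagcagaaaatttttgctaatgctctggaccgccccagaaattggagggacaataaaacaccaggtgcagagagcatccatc
Gbp3: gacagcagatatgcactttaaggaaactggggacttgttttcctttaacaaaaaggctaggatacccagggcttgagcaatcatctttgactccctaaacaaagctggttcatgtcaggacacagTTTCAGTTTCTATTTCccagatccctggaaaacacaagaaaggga
Gbp5: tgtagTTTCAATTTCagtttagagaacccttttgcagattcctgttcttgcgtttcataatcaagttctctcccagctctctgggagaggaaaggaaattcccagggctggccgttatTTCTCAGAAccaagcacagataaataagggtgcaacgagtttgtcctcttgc
Gbp7: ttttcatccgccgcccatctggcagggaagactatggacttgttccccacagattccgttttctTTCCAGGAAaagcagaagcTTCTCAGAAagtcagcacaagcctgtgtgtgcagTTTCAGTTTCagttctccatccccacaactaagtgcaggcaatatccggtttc
Irgm1: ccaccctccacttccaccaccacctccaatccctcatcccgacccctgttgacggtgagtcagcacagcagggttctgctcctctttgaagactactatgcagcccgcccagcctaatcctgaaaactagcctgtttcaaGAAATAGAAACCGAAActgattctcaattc
Igtp: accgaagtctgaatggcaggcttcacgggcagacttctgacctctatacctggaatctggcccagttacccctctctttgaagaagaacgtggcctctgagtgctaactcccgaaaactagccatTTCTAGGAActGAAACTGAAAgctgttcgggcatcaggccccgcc

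All 7 promoters held an ISRE core within the printed stretch, against 3.44% of the 32851 promoters in the table. In Irgm1 it began 30 and again 24 bases before the start, in Igtp 34, in Gbp3 45 and 39, in Gbp7 53, in Gbp2 59, in Gbp2b 137 and in Gbp5 165. A GAS core was found in 3 of the 7, Gbp5, Gbp7 and Igtp, against 8.30% of all promoters, and both motifs together occur in 0.454% of the table. Gbp5 and Gbp7 had a pair each, and the farther match of Gbp5, 245 bases before the start, lies outside the printed stretch. A second RefSeq start of Gbp3 held neither motif. These matches are letters in a window and say nothing of which factor was bound.

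**Figure D1:**
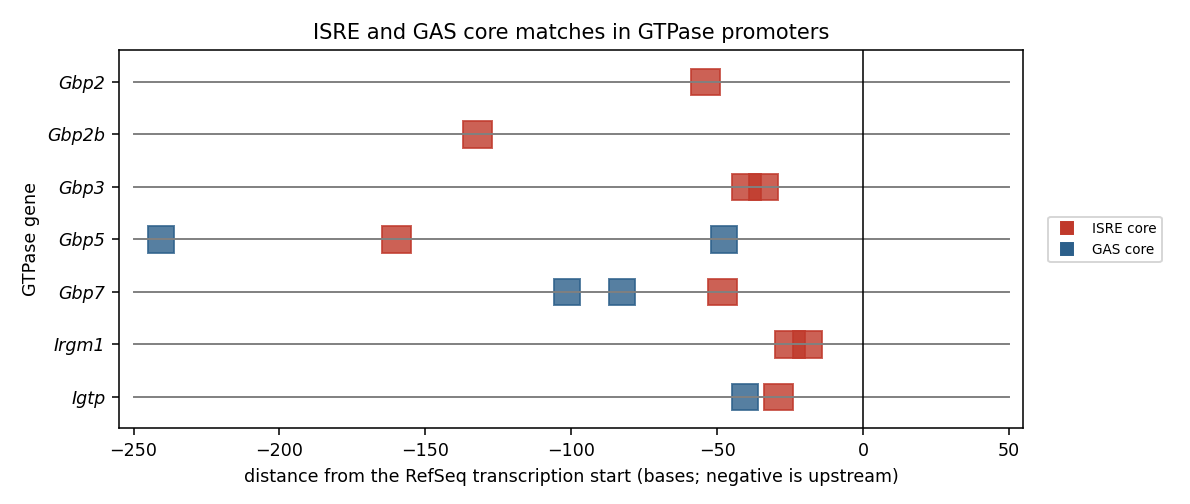
Position of ISRE core (red) and GAS core (blue) matches in the promoters of 7 GTPase genes; the horizontal axis is the distance in bases from the RefSeq transcription start, and box widths are to scale. Every gene has an ISRE core, which begins between 24 and 165 bases upstream, and Gbp5, Gbp7 and Igtp have a GAS core as well.

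In GENCODE M21, Gbp5 (142493978 to 142522344), Gbp7 (142530342 to 142550149), Gbp3 (142560026 to 142573209), Gbp2b (142594847 to 142619179) and Gbp2 (142620602 to 142638008) lie in a row on the plus strand of chromosome 3. Gbp4 (105115767 to 105139586) and Gbp6 (105270702 to 105293698) lie on the minus strand of chromosome 5, and Irgm1 (48861968 to 48871683) and Igtp (58199556 to 58207591) on chromosome 11. All are protein-coding. Because 3′ tags were counted, the last 400 transcript bases decide which gene a read is given to, and for some genes these have near copies. The end of Gbp6 was 99.8% identical to Gbp10 over 400 bases, and 29.0% of its exon bases are shared with Gm43302 on the same strand. Its counts are therefore uncertain. Gbp4 was 95% identical to Gbp9 over 400 bases and Gbp3 81.9% over 398. Igtp shares 162 exon bases with Irgm2, its neighbour on the same strand. The end of Irgm1 was 90.9% identical to Ncbp3 over 198 bases, and Gbp7 shares 637 exon bases with the pseudogene Gm43802. The sources used here do not say how reads that fit several genes were counted. No other gene matched the ends of Gbp2, Gbp2b, Gbp5 or Igtp.

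All 10 GTPases stood higher in NRAS.MYC.ND over all kept cells, with folds from 3.20 for Igtp (33.7 against 10.5 CPM) to 12.5 for Gbp4 (44.7 against 3.58) in the 9 genes other than Gbp2b, of which AKT1.MYC held 1 UMI against 665. The same direction was seen within cell types. In mononuclear phagocytes 10 of 10 favoured NRAS.MYC.ND by 2-fold or more, as did 9.49% of the 15096 measured genes (those with a minimum of 10 UMIs over the libraries together), and 0 favoured AKT1.MYC by as much, as 17.1% of genes did. In endothelial cells all 9 measured GTPases passed 2-fold toward NRAS.MYC.ND (12.5% of genes) and 0 toward AKT1.MYC (10.8%). In epithelial cells it was again 9 of 9 (14.5%) and 0 (15.5%). Neutrophils had 5 measured GTPases, Gbp2, Gbp7, Irgm1, Iigp1 and Igtp, and all passed 2-fold toward NRAS.MYC.ND (8.98%) and 0 toward AKT1.MYC (35.3%). The gated neutrophils differed in other ways, with neutrophil markers at 265235 and 72545 CPM and phagocyte markers at 630 and 3045 CPM. The part of these differences in the result was not tested. T cells had 9 measured, of which 8 could be compared: 7 had UMIs in both libraries and Gbp3 gave a bound set by 3 counts. Of the 9, 5 passed 2-fold toward NRAS.MYC.ND (11.6%) and 0 toward AKT1.MYC (13.4%), and these shares also count genes without a ratio. Some GTPases past 2-fold reached 10 UMIs only through a high NRAS.MYC.ND level. These were Gbp2b in phagocytes (598 and 1 UMIs) and Gbp6 in endothelial cells (32 and 2). Gbp5 in epithelial cells (8 and 2) and Iigp1 in neutrophils (14 and 6) did likewise. At the AKT1.MYC level in both libraries they would not have been measured, so the minimum favoured counting them toward NRAS.MYC.ND.

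The median log2 ratio of the measured GTPases was -2.24 in phagocytes, -1.29 in T cells (-1.42 without the bound of Gbp3), -1.87 in neutrophils, -1.89 in endothelial cells and -3.22 in epithelial cells. The median over all measured genes was 0.11 in phagocytes, -0.0037 in T cells, 0.59 in neutrophils, -0.11 in endothelial cells and 0.14 in epithelial cells. Counting intervals excluded equal levels for every measured GTPase in phagocytes, neutrophils, endothelial and epithelial cells and for 4 of 8 in T cells, the bound of Gbp3 among them. With upper quartile scaling, 17.8% of neutrophil genes passed 2-fold toward NRAS.MYC.ND and 21.2% toward AKT1.MYC. That scaling moved every neutrophil log2 ratio by -0.50, toward NRAS.MYC.ND, so the 5 GTPases could not fall short of 2-fold. Of these 5, Gbp7 alone had 30 UMIs or more over both libraries.

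**Figure D2:**
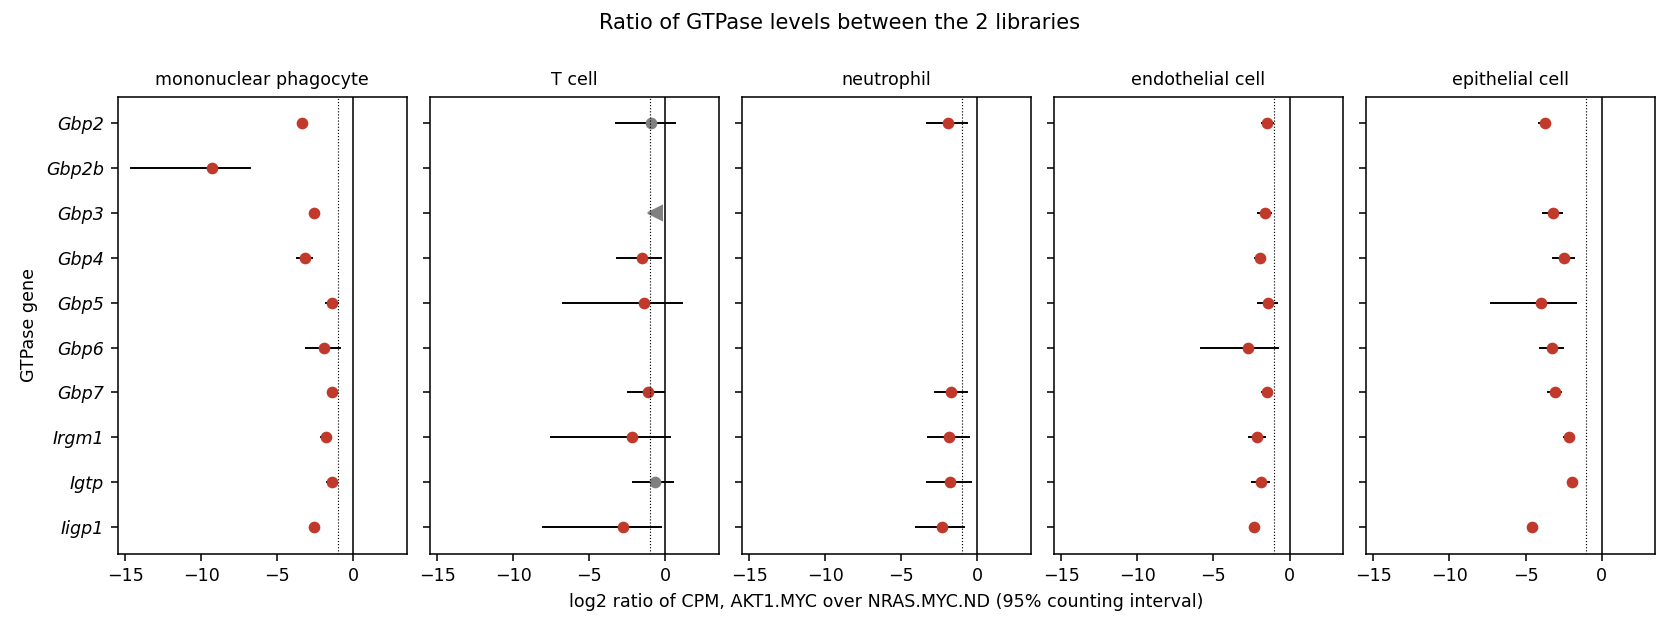
Log2 ratio of CPM, AKT1.MYC over NRAS.MYC.ND, for each measured GTPase in 5 gated cell types; lines are 95% counting intervals, red points lie at or beyond 2-fold (dotted line), grey points do not, and the grey triangle is a limit set by 3 counts in AKT1.MYC. No point lies right of 0, and Gbp2b in phagocytes stands farthest left at -9.29.

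Free RNA from other cells differed between the libraries and bears on low levels. In each compared type, epithelial, phagocyte, neutrophil and endothelial markers, other than its own, were set against the whole library's profile. The lowest of these shares was taken, and it came from neutrophil or endothelial markers. It was 2.91% to 5.53% in NRAS.MYC.ND and 11.8% to 22.7% in AKT1.MYC. With that lowest share subtracted, all 41 member ratios in the 5 types were still below 0, but 3 T cell GTPases instead of 5 passed 2-fold. The share of all genes past 2-fold was not counted after this subtraction. Larger shares were not tried. The 53 erythroid-gated NRAS.MYC.ND cells, at a median of 5865 UMIs, were taken as a reference with low levels. They had 24.8 CPM of Iigp1 (12.4 to 44.4), 22.5 of Irgm1 (10.8 to 41.5), 15.8 of Gbp7 and 13.5 of Gbp4. Gbp2 and Igtp were at 6.76 each, Gbp3 at 4.51, and Gbp2b, Gbp5 and Gbp6 at 0. Over all kept cells Iigp1 stood at 292 CPM, and Irgm1 and Igtp together at 64.7, beside 29.3 in erythroid-gated cells. Whether the erythroid UMIs were free RNA or the cells' own transcripts was not tested. AKT1.MYC held 2 such cells and gave no reference.

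**Figure D3:**
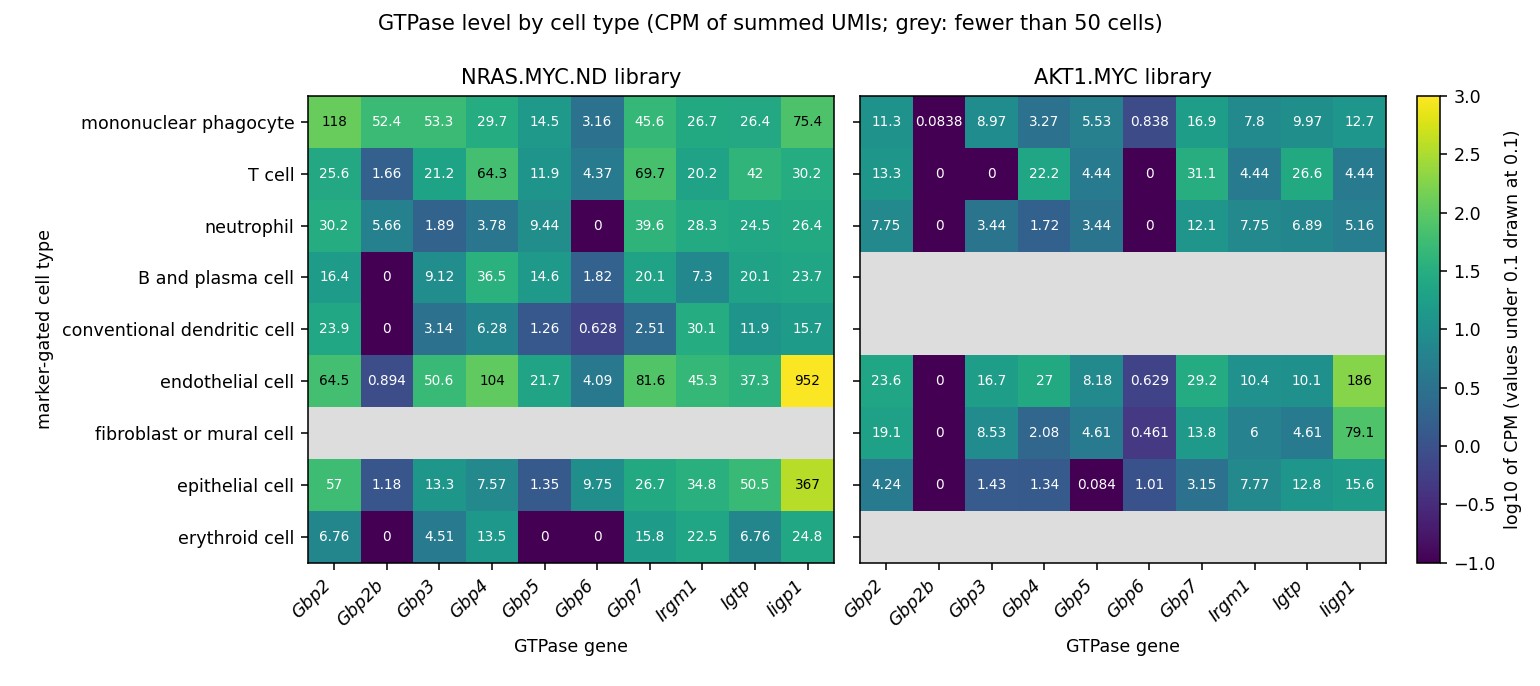
CPM of each GTPase in gated cell types of both libraries; colour is the log10 of CPM and the printed number is the CPM, with grey for types of fewer than 50 cells. Iigp1 in NRAS.MYC.ND endothelial cells (952) is the highest value, and the Gbp2b column is near 0 outside NRAS.MYC.ND phagocytes (52.4).

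Among the prenylated GBPs, Gbp2 had its highest NRAS.MYC.ND level in phagocytes, 118 CPM (111 to 124) against 11.3 (9.49 to 13.4) in AKT1.MYC, a 10.4-fold difference (8.71 to 12.5). It followed in endothelial cells at 64.5 against 23.6 CPM and in epithelial cells at 57.0 against 4.24 CPM, 13.4-fold, and the intervals of these NRAS.MYC.ND levels overlapped. Neutrophils (30.2 against 7.75), T cells (25.6 against 13.3), conventional dendritic cells (23.9) and B and plasma cells (16.4) of NRAS.MYC.ND were lower and did not differ beyond their intervals. The T cell value of AKT1.MYC rests on 3 UMIs, and its fold of 1.92 had an interval from 0.642 to 9.44. Without doublet removal, and with equal weight per cell, the T cell ratio changed sign.

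Gbp2b was found mainly in NRAS.MYC.ND phagocytes. They held 598 of its 665 UMIs in that library, 89.9% against the 30.02% of all UMIs that phagocytes held, at 52.4 CPM (48.3 to 56.8). The other gated NRAS.MYC.ND types with at least 50 cells had from 0 CPM, in conventional dendritic, erythroid and B and plasma cells, to 5.66 CPM, in neutrophils (3 UMIs). A UMI of Gbp2b was seen in 15.3% of NRAS.MYC.ND phagocytes and in 1 of 2593 in AKT1.MYC. The ratio of 625-fold has an interval from 112 to 24737, since it rests on 1 UMI. Thinned to 954 UMIs per cell, 3.43% of NRAS.MYC.ND phagocytes had it and 0 of 2235 in AKT1.MYC, which allows up to 0.134% of cells with a UMI (3 of the total; the exact upper limit is 0.165%).

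Gbp5 was found in several leukocyte types and in endothelium. Its NRAS.MYC.ND levels were 21.7 CPM in endothelial cells, 14.6 in B and plasma cells, 14.5 in phagocytes, 11.9 in T cells and 9.44 in neutrophils, with each neighbour in that order overlapping the next, and 1.35 in epithelial cells and 1.26 in conventional dendritic cells. AKT1.MYC had 8.18 in endothelial cells, 5.53 in phagocytes and 0.0840 in epithelial cells, the last from 2 UMIs. The folds were 2.65 (1.75 to 4.18) in endothelial cells and 2.63 (1.97 to 3.55) in phagocytes.

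Of the GBPs without that lipid motif, Gbp4 and Gbp7 were highest in endothelial and T cells. Gbp4 stood at 104 CPM (97.0 to 111) in NRAS.MYC.ND endothelial cells and 64.3 (57.3 to 71.8) in T cells, against 27.0 and 22.2 in AKT1.MYC. In phagocytes it was 29.7 against 3.27 CPM, a fold of 9.09 (6.51 to 13.01) beside 3.85 (3.08 to 4.86) in endothelial cells. Gbp7 stood at 81.6 against 29.2 CPM in endothelial cells, 69.7 against 31.1 in T cells, 45.6 against 16.9 in phagocytes and 39.6 against 12.1 in neutrophils. Its folds in these 4 types lay between 2.24 and 3.29, and in epithelial cells, at 26.7 against 3.15 CPM, the fold was 8.49 (6.41 to 11.3).

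Gbp3 was shared by phagocytes and endothelium, at 53.3 CPM (49.1 to 57.7) and 50.6 (45.7 to 55.8) in NRAS.MYC.ND, against 8.97 and 16.7 in AKT1.MYC. T cells had 21.2 CPM in NRAS.MYC.ND from 102 UMIs and 0 UMIs in AKT1.MYC, at least 1.59-fold lower against a floor of 3 counts, and 1.27-fold at the limit of counting error. Gbp6 had the fewest UMIs over both libraries, 161 and 46, and was the only GBP whose highest NRAS.MYC.ND level was in epithelial cells, 9.75 CPM (7.41 to 12.6) against 1.01. Its other NRAS.MYC.ND levels, 4.37 in T cells, 4.09 in endothelial cells and 3.16 in phagocytes, had overlapping intervals.

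The regulators Irgm1 and Igtp were spread more evenly over the 5 compared types of NRAS.MYC.ND than the other GTPases. Irgm1 in NRAS.MYC.ND ranged from 7.30 CPM in B and plasma cells and 20.2 in T cells to 45.3 (40.7 to 50.3) in endothelial cells, with 26.7 (23.8 to 29.9) in phagocytes. All of these intervals overlapped that of the erythroid reference (10.8 to 41.5), and whether its Irgm1 UMIs were free RNA was not tested. The AKT1.MYC levels of Irgm1 lay between 4.44 and 10.4 CPM in the 5 compared types. Igtp stood at 50.5 against 12.8 CPM in epithelial cells, 42.0 against 26.6 in T cells, 37.3 against 10.1 in endothelial cells, 26.4 against 9.97 in phagocytes and 24.5 against 6.89 in neutrophils. Folds of both regulators lay between 2.64 and 4.48 in phagocytes, neutrophils, endothelial and epithelial cells. In T cells Igtp was 1.58-fold higher in NRAS.MYC.ND with an interval from 0.712 to 4.35.

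The effector Iigp1 had the widest range of CPM between cell types in both libraries. In NRAS.MYC.ND it stood at 952 CPM (930 to 974) in endothelial cells, 367 (352 to 383) in epithelial cells and 75.4 (70.4 to 80.6) in phagocytes, with no overlap between neighbours. T cells (30.2), neutrophils (26.4), B and plasma cells (23.7) and conventional dendritic cells (15.7) did not differ from the erythroid reference of 24.8 beyond their intervals. AKT1.MYC had 186 CPM (171 to 201) in endothelial cells, 79.1 (70.9 to 87.9) in fibroblasts and mural cells, 15.6 in epithelial cells and 12.7 in phagocytes. The fold was 5.12 (4.71 to 5.58) in endothelial cells and 5.92 (4.97 to 7.08) in phagocytes, and 23.6 (21.1 to 26.4) in epithelial cells. The interval of the epithelial fold did not overlap those of the other 2.

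Iigp1 alone made up 69.9% of the UMIs of the 10 GTPases in NRAS.MYC.ND endothelial cells and 59.6% in AKT1.MYC. In epithelial cells the shares were 64.5% and 32.9%. For each UMI of the regulators Irgm1 and Igtp together there were 11.5 and 9.09 of Iigp1 in endothelial cells, 4.31 and 0.757 in epithelial cells, 1.42 and 0.717 in phagocytes and 0.485 and 0.143 in T cells, the last from 1 Iigp1 UMI. A 3′ tag library gives 1 UMI per captured transcript whatever its length, but whether capture differs between these genes was not tested. The 3′ end of Iigp1 was 87.7% identical to that of Gm4951 over 325 bases.

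Endothelial cells held 20.6% of all NRAS.MYC.ND UMIs and 67.1% of those of Iigp1, 47.998% of those of Gbp4 and 34.9% of those of Gbp5. Phagocytes held 30.02% of all and 46.2% of Gbp3 and 45.7% of Gbp2. T cells, with 12.7% of all UMIs, held 18.2% of both Gbp4 and Gbp7 and 1.31% of Iigp1. In AKT1.MYC, epithelial cells held 39.5% of all UMIs, 48.03% of those of Igtp and 1.41% of those of Gbp5, and fibroblasts and mural cells 7.19% of all and 20.9% of Iigp1. Cells that met no gate held 17.5% of Gbp2 UMIs in NRAS.MYC.ND beside 10.9% of all UMIs, at 123 CPM, a level like that of phagocytes.

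**Figure D4:**
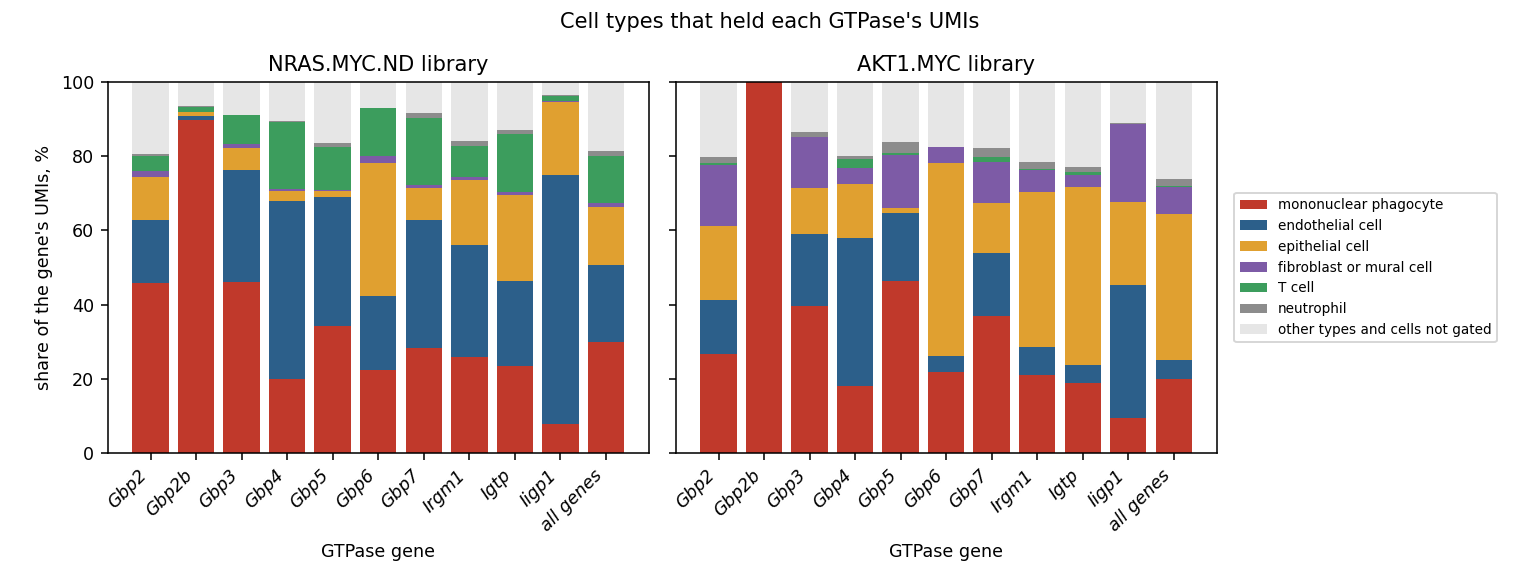
Share of each GTPase's UMIs that came from each gated cell type in the 2 libraries, in percent, with all genes together at the right of each panel. In NRAS.MYC.ND, phagocytes (red) hold 89.9% of Gbp2b and endothelial cells (blue) 67.1% of Iigp1; Gbp2b in AKT1.MYC is 1 UMI.

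Within phagocytes, Kupffer-gated cells (227 and 164), which carry genes of the resident liver macrophage, were set beside monocyte-gated cells (182 and 87) and the rest (875 and 2342). Gbp2b stood at 113 CPM in Kupffer-gated cells of NRAS.MYC.ND, 35.7 in the rest and 3.65 in monocyte-gated cells, while Gbp2 stood at 131, 114 and 110. Iigp1 ran another way, with 48.2, 93.8 and 23.7 CPM. The median log2 ratio was -1.56 in Kupffer-gated cells, where Igtp was at 13.3 against 13.5 CPM. It was -3.23 in monocyte-gated cells, over 8 measured genes, where Gbp7 was at 21.9 CPM in both libraries. Equal weight per cell gave -1.78 over all phagocytes. Depth differed along with the library here, at medians of 7738 and 2841 UMIs in all phagocytes, and its part in the result was not tested.

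Endothelial cells with a UMI of Stab2 or Clec4g, genes of the liver sinusoid, numbered 597 and 177, and those without either 213 and 183. Iigp1 was 1043 against 199 CPM in the former and 619 against 164 in the latter, and Gbp4 96.8 against 25.7 and 131 against 29.3. The median log2 ratios were -1.91 and -1.78. Hepatocyte-leaning epithelial cells (408 and 725) and cholangiocyte-leaning ones (75 and 857) had Iigp1 at 409 against 17.4 and 293 against 14.3 CPM. Gbp2 was 34.4 against 3.17 CPM in the former and 150 against 5.21 in the latter, 28.7-fold (21.5 to 38.7). The mixture of these 2 kinds differed between the libraries, and its part in the result was not tested. The median log2 ratio was -3.16 in the first and -3.63 in the second. In the other epithelial cells (22 and 246) it was -2.39, over 5 measured genes.

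T cells of the 2 libraries differed beyond the GTPases. T cell markers summed to 10258 and 4624 CPM, phagocyte markers to 463 and 2112 CPM, and neutrophil markers to 130 and 462 CPM, and their part in the result was not tested. Most gated T cells of NRAS.MYC.ND, 1021, had Cd8a or Cd8b1 without Cd4, against 35 in AKT1.MYC. In CD8-gated cells 9 GTPases were measured and only 4 allowed a ratio, Gbp2, Gbp4, Gbp7 and Igtp. These were past 2-fold toward NRAS.MYC.ND, but all 4 intervals included equal levels. The share of all genes past 2-fold was not counted in CD8-gated cells. The 50 CD4-gated cells of NRAS.MYC.ND had 159 CPM of Igtp (105 to 232) beside 33.2 in CD8-gated cells, and 112 CPM of Iigp1 (67.5 to 175) beside 21.9 (17.5 to 27.2). AKT1.MYC had 4 CD4-gated cells.

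In NRAS.MYC.ND fibroblasts and mural cells (43 cells against 544, so not compared by count), Gbp2 stood at 101 against 19.1 CPM and Iigp1 at 126 against 79.1, a fold of 1.60 (1.18 to 2.13) beside 5.12 or more in the 5 compared types. Gbp5, with 1 UMI in NRAS.MYC.ND, was the only measured member with a higher level in AKT1.MYC there, 2.30 against 4.61 CPM, and its interval included equal levels.

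To compare single cells at equal depth, cells of a type were thinned to the 10th percentile of its UMIs, and shallower cells were left out. These were 29 and 358 phagocytes, 129 and 14 T cells, 28 and 56 neutrophils, 68 and 49 endothelial cells and 52 and 181 epithelial cells. At least 1 of the 10 GTPases was then seen in 77.2% of NRAS.MYC.ND endothelial cells (74.03 to 80.2) and 36.01% of AKT1.MYC ones (30.7 to 41.6), at 1945 UMIs (not thinned, 92.8% and 65.6%). The shares were 37.97% and 12.9% in T cells at 1864 UMIs (not thinned, 54.2% and 26.3%) and 28.1% and 6.85% in phagocytes at 954 (72.6% and 21.6%). They were 24.9% and 4.13% in epithelial cells at 691 UMIs (68.5% and 33.6%) and 18.5% and 5.75% in neutrophils at 1176 (25.1% and 8.40%). The intervals of the 2 libraries did not overlap in any of these types. Cells with 3 or more of the genes were 14.4% of NRAS.MYC.ND endothelial cells and 0.643% of those in AKT1.MYC, and at most 1.95% elsewhere. Iigp1 was seen in 58.8% and 20.9% of thinned endothelial cells and in 18.8% and 1.03% of epithelial cells, while erythroid-gated cells thinned alike had it in 1 of 49 and 0 of 53. Depth was short for most other genes at 691 UMIs: 5 GTPases remained measured in thinned epithelial cells, 4 of them past 2-fold, at a median of -1.86. In thinned T cells 5 remained and 1 of them, Gbp4, was past 2-fold. The share of all genes past 2-fold was not counted after thinning, so these counts have no such value beside them.

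**Figure D5:**
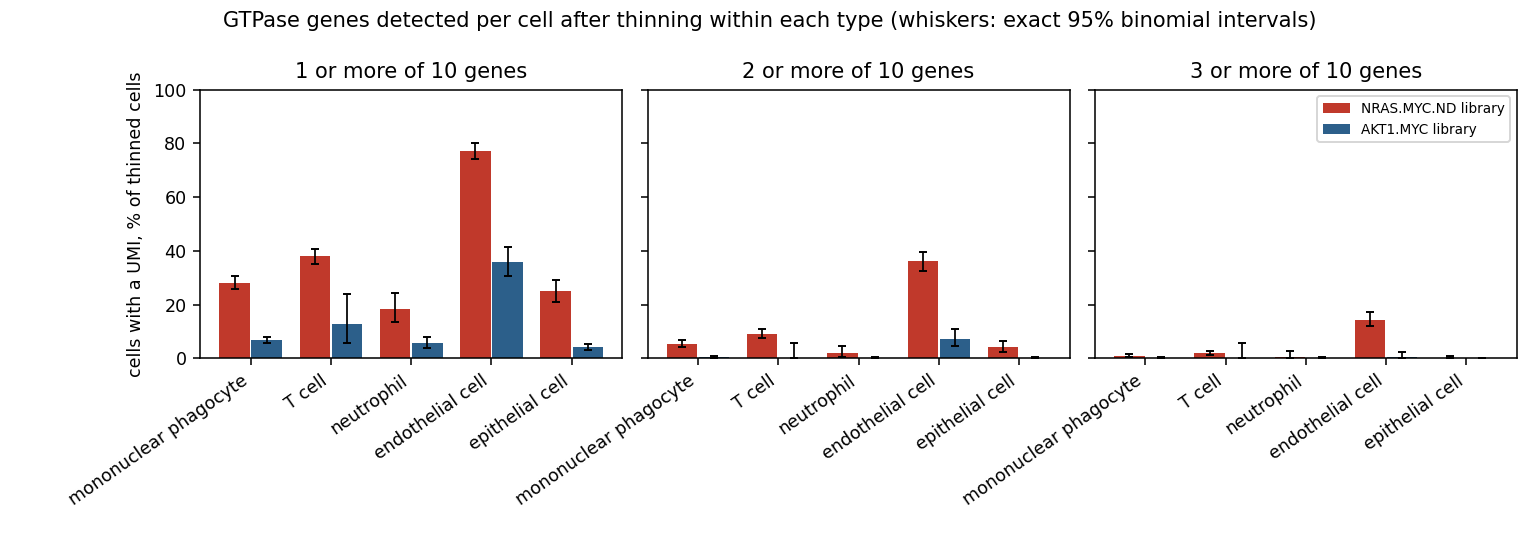
Share of cells, in percent, with UMIs of at least 1, 2 or 3 of the 10 GTPase genes, after thinning cells of a type to the same number of UMIs and leaving out shallower ones; red is NRAS.MYC.ND, blue AKT1.MYC, and whiskers are exact 95% binomial intervals. Endothelial cells of NRAS.MYC.ND stand highest in each panel, at 77.2%, 36.1% and 14.4%.

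Across the 14 sums of a cell type and library with at least 50 cells, the log2 level of Gbp3 followed the mean of the other 9 GTPases most closely (r = 0.869), then Gbp2 (0.861), and Gbp2b least (0.408). The closest pair was Gbp2 and Gbp3 (0.797) and the least alike Gbp2b and Iigp1 (0.123). These sums share libraries and free RNA, so the correlations are descriptions. A level of 50 CPM in at least 1 sum was reached by 6796 genes, some of the 10 GTPases among them. Of the rest, the 10 whose log2 level was most like the mean of the GTPases began with Parp14 (r = 0.906), an ADP-ribosyltransferase. Xaf1 (0.831), the secretase subunit Ncstn (0.814), Gm4951 (0.807), Gm42418 (0.798) and the tetraspanin Tspan15 (0.772) came next. The class I light chain B2m (0.771), Ifit3 (0.764), the class I gene H2-T23 (0.761) and the chemokine Cxcl9 (0.757) followed. Gm42418 is a noncoding locus that overlaps ribosomal RNA. It stood at 1190 against 511 CPM in phagocytes and 3135 against 1074 in endothelial cells, and its part in the result was not tested.

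The other interferon-inducible GTPases, 13 genes, had 8 of 10 measured members past 2-fold toward NRAS.MYC.ND in phagocytes (9.49% of all genes), 9 of 11 in endothelial cells (12.5%), 10 of 11 in epithelial cells (14.5%), the 1 measured in neutrophils (8.98%) and 1 of 7 in T cells (11.6%), where another passed 2-fold toward AKT1.MYC (13.4%). The GBP Gbp8 stood at 40.7 against 5.62 CPM in phagocytes but at 1.92 against 0.629 in endothelial cells, and Gm4951 at 37.3 against 6.79 and 117 against 22.3. Tgtp2, with 29 and 3 UMIs in phagocytes, and F830016B08Rik (11.04 against 3.10 CPM) went the same way. The antiviral GTPase Mx1 was 22.7 against 11.6 CPM in phagocytes, short of 2-fold, and 1.79 against 4.09 in endothelial cells, the list's only member past 2-fold toward AKT1.MYC there, with an interval that included equal levels. Mx1 was named after its values were seen.

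Interferon gamma itself, Ifng, stood at 427 against 142 CPM in T cells, 3.003-fold. Among genes of its receptor and signalling pathway, in phagocytes, the feedback inhibitor Socs1 (13.3 against 8.05 CPM) and the phosphatase Ptpn2 (25.4 against 17.2) were short of 2-fold, and the transcription factor Irf1 was at 75.7 against 115 CPM, higher in AKT1.MYC but also short of 2-fold. In T cells Ifngr2 stood at 5.41 against 22.2 CPM, from 26 and 5 UMIs, a gene named after its values were seen.

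Interferon gamma-inducible genes that are not GTPases had 8 of 10 measured members past 2-fold toward NRAS.MYC.ND in phagocytes (9.49% of all genes), 9 of 11 in endothelial cells (12.5%), 7 of 10 in epithelial cells (14.5%), 1 of 9 in T cells (11.6%) and 1 of 7 in neutrophils (8.98%). The last 2 counts are near the share of all genes, and in neutrophils Cxcl10, named after its values were seen, stood at 7.55 against 92.1 CPM, higher in AKT1.MYC. In phagocytes the chemokine Cxcl9 stood at 372 against 14.7 CPM, the protease inhibitor Serpina3g at 107 against 5.03, the class II regulator Ciita at 43.1 against 2.18 and the immunoproteasome subunit Psmb9 at 156 against 52.6. Type I interferon-inducible antiviral genes had 10 of 12 in phagocytes, 9 of 12 in endothelial cells, 6 of 12 in epithelial cells, 3 of 11 in T cells and 4 of 10 in neutrophils, beside the same shares of all genes. Among them, in phagocytes, Ifit2 stood at 72.7 against 13.6 CPM, Ifi44 at 18.1 against 3.52, the transcription factor Irf7 at 410.3 against 104 and Ifit3 at 87.5 against 24.6.

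Genes for the machinery that these GTPases use, and type I receptor and signalling genes, were mostly short of 2-fold in phagocytes or went both ways. Most measured genes were also short of 2-fold there: 9.49% passed it toward NRAS.MYC.ND and 17.1% toward AKT1.MYC. The ATG8 conjugation genes, which help place GBPs and IRGs on membranes, had 0 of 10 past 2-fold in phagocytes, with Map1lc3b the farthest (239 against 327 CPM). The prenylation enzymes had 0 of 5, with Pggt1b, the subunit that adds the geranylgeranyl tail, at 43.9 against 32.8 CPM, while in neutrophils 3 of 4 measured ones passed 2-fold toward AKT1.MYC, beside 35.3% of all genes (21.2% with upper quartile scaling). The type I receptor and signalling genes had 1 of 5, Ifnar2 at 288 against 137 CPM. Of the inflammasome genes, Il18 (136 against 33.9 CPM) and Casp1 (51.1 against 21.9) were higher in NRAS.MYC.ND phagocytes, and Il1b (320 against 1154) and Nlrp3 (23.1 against 85.2) in AKT1.MYC ones.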

How the data were processed

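Tumour cells of 2 libraries, 1 per group, were captured on 10x Genomics 3′ chips. The authors deposited whole-number UMI counts per gene and cell barcode, with no normalization. The file header names Cell Ranger 6.1.1 and the submitters' processing notes Cell Ranger 6.1.2 and mm10.

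Barcodes under 500 UMIs, under 250 genes or over 20% mitochondrial UMIs were removed (351 and 456). Scrublet (Scanpy 1.11.5) set a threshold that called 0 doublets, so the highest scores, to an expected 0.8% per 1000 barcodes, were removed instead (327 and 912). A marker counted as positive with a UMI and a share of at least 2 times that of its library; a cell was gated to the lineage with most positive markers, at least 3, leading all others by 2. Levels are CPM of a type's summed counts with exact Poisson intervals; intervals of ratios come from the exact binomial test of 2 counts, and those of cell shares are Clopper-Pearson, all at 95%. A count of 0 was set to a floor of 3 counts per type and library. Genes with at least 10 UMIs over both libraries were measured. Similarity used log2(CPM + 10), over genes that reached 50 CPM. The script was tested on simulated counts. Python 3.11.15, scipy 1.17.1 and blastn 2.17.0 were used; no test compared the groups.

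The members and gene lists were chosen with earlier results of these data known. The gate rule, the subsets of types, the looser gate and the free RNA subtraction were chosen after seeing the data, including member levels under the looser gate. From each list, up to 4 genes with the largest absolute log2 ratio in phagocytes and at least 30 UMIs were named. One gene of the lists, and the counts of its list, are not reported here.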

Additional observations from a re-analysis of the deposited data

How the results depend on the processing

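Every alternative for the 5 types left the count of GTPases at least 2-fold higher in AKT1.MYC at 0. Of the alternative values of medians, counts and genes per cell, 204 stayed within a range around the main value and 10 did not. The 204 include the counts toward AKT1.MYC, which stayed at 0. For medians the range ran from the median of the members' lower limits to the median of their upper limits. For counts it was within 1.5 times, and for genes per cell the counting interval. The range for the median is wide in T cells, from -4.99 to 0.11. Over all alternatives the median log2 ratio lay between -3.23 and -1.56 in phagocytes, -1.80 and -0.78 in T cells, -2.37 and -1.55 in neutrophils, -2.01 and -1.59 in endothelial cells and -3.63 and -1.86 in epithelial cells. The values that moved were the phagocyte median with equal weight per cell (-1.78), in Kupffer-gated cells alone (-1.56) and in monocyte-gated cells alone (-3.23), and the T cell count past 2-fold, which was 8 with a looser gate, 3 after free RNA was subtracted and 1 after thinning, against 5. The neutrophil count was 1 at a minimum of 30 UMIs, where 1 GTPase was measured. Thinning gave an epithelial median of -1.86 and a count of 4, with 5 genes measured. Apart from the main setting, the share of all genes past 2-fold was counted only for upper quartile and median of ratios scaling. The ratio of genes detected per endothelial cell was 2.42 at the 25th percentile of depth, against 2.997. For single genes, Gbp2 in T cells changed sign without doublet removal (0.28) and with equal weight per cell (0.037), Igtp in Kupffer-gated cells (0.019) and Gbp7 in monocyte-gated cells (0.0014); the cause was not tested. Upper quartile scaling moved every log2 ratio by -0.50 in neutrophils and by 0.13 in endothelial cells, and median of ratios scaling by -0.11 in neutrophils and -0.10 in epithelial cells. No paired analysis was possible because each group has 1 library, and no replicate could be left out. Depth limits the T cell and neutrophil values most, where AKT1.MYC held at most 7 and 14 UMIs of any one GTPase.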
